A study of Mus musculus with 4 samples.

Results

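Of the 10466 Smad1 sites that the authors listed as common to both peak callers in DMSO-treated mouse embryoid bodies (EBs), 4225 (40.4%) were intergenic and held a run of adenines. A site entered this set when it overlapped no tRNA gene, contained at least 7 identical A in a row on either strand, and had its centre outside every GENCODE M21 gene and more than 1 kb from every transcript start. These 4225 intergenic run sites are compared below with the 4189 gene-body run sites, which hold a run as well but have their centre inside a gene, and with the 302 intergenic sites that hold no run. A further 214 sites overlapped a tRNA gene and 924 run sites lay within 1 kb of a transcript start, and these were set aside.

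Smad1 is the transcription factor that BMP receptors phosphorylate. It then enters the nucleus with Smad4 and binds short GC-rich or CAGA-type words, usually beside other factors of the cell type. Long runs of adenine in the mouse genome are for the most part the tails of retrotransposed elements, among them the B1 and B2 short interspersed elements, whose RNA is copied into DNA from a poly(A) tail. Soft masking, the lower-case writing of repeats and simple sequence in a genome file, marks such elements.

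The cells were GFP-Bry ES cells of the C57BL/6 strain according to the labels, differentiated as EBs, reaggregated on the day before collection and harvested at day 4 after 24 h in DMSO, the vehicle, or in 10 µM IWR1 (IWR-1), an inhibitor of Wnt signalling. GFP-Bry is a reporter line for the mesodermal gene Brachyury, and whole EBs were used, so the cells are a mixture. Each treatment had 1 Smad1 ChIP library and 1 input library, so no difference between DMSO and IWR-1 has a replicate check, no p-value is given, and all intervals are 95% intervals that cover counting error over sites only. Read counts are not part of the lists, and the number of reads behind each site is therefore unknown.

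Labels and lists disagreed. The DMSO MACS list was filed with the DMSO input and the DMSO QESEQ list with the IWR1 input. Both bear DMSO in their own names. Their coordinates match this, because all 10466 common sites equal an interval of that QESEQ list and overlap a peak of that MACS list. The QESEQ calls for IWR-1 were filed with the matching IWR1 ChIP. What remains is another MACS list, which bears IWR-1 in its own name but was filed with the DMSO ChIP. It is taken here for IWR-1 and, because of that conflict, named only as the second MACS list. MACS and QESEQ are separate programs that call peaks from the same aligned reads. A DMSO MACS score of at least 50 is attached to each site and ranks sites within that list only.

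To show what the sites look like, runs and their neighbouring 40 bases on either side are printed from mm10 (GRCm38), 5′ to 3′ with the run read as A. Capitals mark the longest run of the site and all other bases are in lower case, so case does not show soft masking here. A minus sign marks a site whose run is T on the reference strand. All of them lie outside genes. The first 3 belong to the members that rank 2 to 4 by score, all called in both IWR-1 lists, and are shown because the bases after their runs are alike. At the first and last of them all 40 bases after the run are identical, and the middle one shares 34 of 40 with each. Their nearest genes are Klrb1c, Rny3 and Gm44066.
chr6:128764086-128764175 (+): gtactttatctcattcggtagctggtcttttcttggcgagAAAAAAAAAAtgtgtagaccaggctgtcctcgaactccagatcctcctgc
chr6:47778205-47778291 (+): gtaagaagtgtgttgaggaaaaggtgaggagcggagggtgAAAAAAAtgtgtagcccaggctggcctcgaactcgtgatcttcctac
chr6:128838499-128838587 (-): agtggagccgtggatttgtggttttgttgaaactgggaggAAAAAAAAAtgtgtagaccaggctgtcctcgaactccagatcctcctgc

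The next pair are the highest scoring members that hold the word CTGTCTC within 40 bases before the run, a word shared by many members. The runs have 48 and 44 bases, and the nearest genes, Gm5270 and Gm8768, lie 6035 bp and 23536 bp away.
chr2:161261417-161261544 (+): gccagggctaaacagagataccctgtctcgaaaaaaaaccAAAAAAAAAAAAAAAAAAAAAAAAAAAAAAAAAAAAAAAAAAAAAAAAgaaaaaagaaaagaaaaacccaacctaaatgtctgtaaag
chr10:103454019-103454142 (+): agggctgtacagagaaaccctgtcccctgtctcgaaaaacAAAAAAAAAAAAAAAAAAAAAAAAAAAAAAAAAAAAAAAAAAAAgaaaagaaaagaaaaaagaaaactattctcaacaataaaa

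The last 4 show the range of runs and calls. The first has the longest run of all members, 65 bases, and no IWR-1 call. The member near Tcea3 has a run of 57 bases, which also follows the CTGTCTC word, and was called by IWR-1 QESEQ alone. The member near AC151267.2 had the second highest score among those with no IWR-1 call, and the last is the member farthest from any gene, 615182 bp from 9330185C12Rik, called in the second MACS list alone.
chr3:101948530-101948674 (-): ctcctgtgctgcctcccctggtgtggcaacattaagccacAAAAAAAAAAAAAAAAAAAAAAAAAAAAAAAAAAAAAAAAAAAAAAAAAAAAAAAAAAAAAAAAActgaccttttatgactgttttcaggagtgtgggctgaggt
chr4:136277910-136278046 (-): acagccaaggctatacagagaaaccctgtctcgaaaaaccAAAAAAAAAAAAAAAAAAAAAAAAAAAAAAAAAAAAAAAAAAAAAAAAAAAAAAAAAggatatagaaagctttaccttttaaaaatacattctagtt
chr17:51606503-51606615 (+): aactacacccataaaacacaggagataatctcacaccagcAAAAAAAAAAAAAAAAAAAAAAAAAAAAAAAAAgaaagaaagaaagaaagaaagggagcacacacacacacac
chr1:114579332-114579440 (+): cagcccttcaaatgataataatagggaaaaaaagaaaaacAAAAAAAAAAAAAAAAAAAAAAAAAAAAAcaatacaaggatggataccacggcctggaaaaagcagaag

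Runs at these sites were long. The median longest run was 27 bases (95% interval 26 to 27, quartiles 22 and 32), the most frequent length was 25 bases, found at 282 sites, and the longest reached 65. Windows of the same width 2 kb to either side of each site, which sample the local sequence, held a run of 7 or more in 29.1% of cases, and then with a median of 8 bases. Windows of 420 bp, the median width of the sites, placed every 10 kb over the intergenic genome also had a median of 8 bases where they held a run. Among the intergenic run sites, 83.3% (82.1 to 84.4%) had a run of 20 or more, against 4.10% of the windows 2 kb away that held a run and 3.69% of such grid windows. Over all windows, with or without a run, the shares were 1.20% and 1.05%. A run of 40 or more was present at 10.98% of the intergenic and 6.90% of the gene-body run sites, whose median was 26. The run is the reason a site belongs to the set, but only its first 7 bases are: of all 4527 intergenic sites away from tRNA genes, 93.3% (92.6 to 94.0%) passed that threshold, compared with 28.4% of the 138829 grid windows. At the threshold itself, 46 members had a longest run of exactly 7, of which 14 had an IWR-1 QESEQ call, and 57 sites just outside it had a longest run of 6, of which 19 did.

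**Figure D1:**
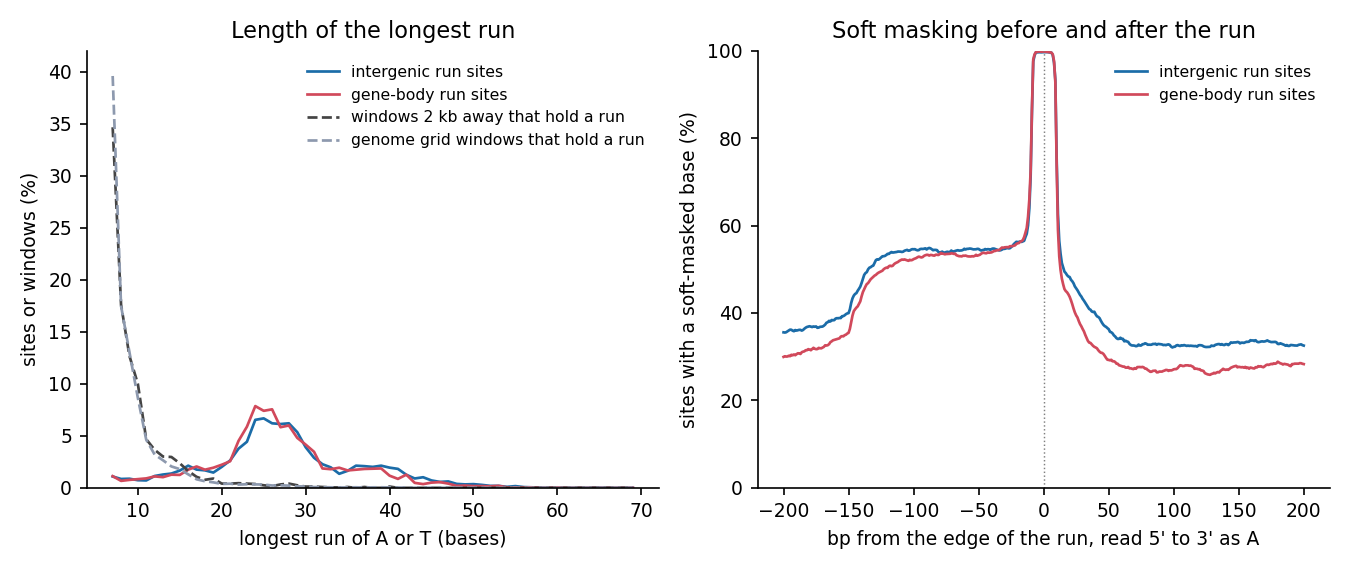
Left, length of the longest run of A or T (bases) against the percentage of sites or windows, for 4225 intergenic run sites, 4189 gene-body run sites and background windows that hold a run; sites have their mode near 25 bases and windows near 7. Right, percentage of sites whose base is soft-masked at each bp before (negative) and after (positive) the run read as A; masking stays above 50% for more than 100 bp before the run and is at 32.3% 100 bp after it.

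Looking from the genome instead of from the sites, the share of intergenic runs that lay under a called site depended on run length. All uninterrupted runs of at least 10 A or T in intergenic sequence of the autosomes were located and overlapped with each list. Common DMSO sites covered 0.451% of the 188404 runs of 10 to 14 bases, 6.06% of those of 20 to 24, 14.7% of those of 25 to 29 and 30.0% (27.6 to 32.5%) of the 1333 runs of 40 to 49. The DMSO MACS list went further, with 59.1% of the runs of 40 to 49 and 197 of the 228 runs of 50 or more (86.4%, 81.3 to 90.6%) under a peak. The DMSO QESEQ list covered 32.5% at 30 to 34 bases, 38.7% at 35 to 39 and 35.1% at 50 or more, so it had no such climb past 35 bases. Under the second MACS list 64.9% of the runs of 50 or more were covered, and under IWR-1 QESEQ 25.4%. Other simple repeats were overlapped less: of perfect repeats of at least 24 bases, common DMSO sites overlapped 0.152% of 111203 CA repeats, 0.112% of 54485 GA repeats and 2 of 17110 TA repeats. These shares describe the lists, and no cause of the difference between repeats was tested.

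**Figure D2:**
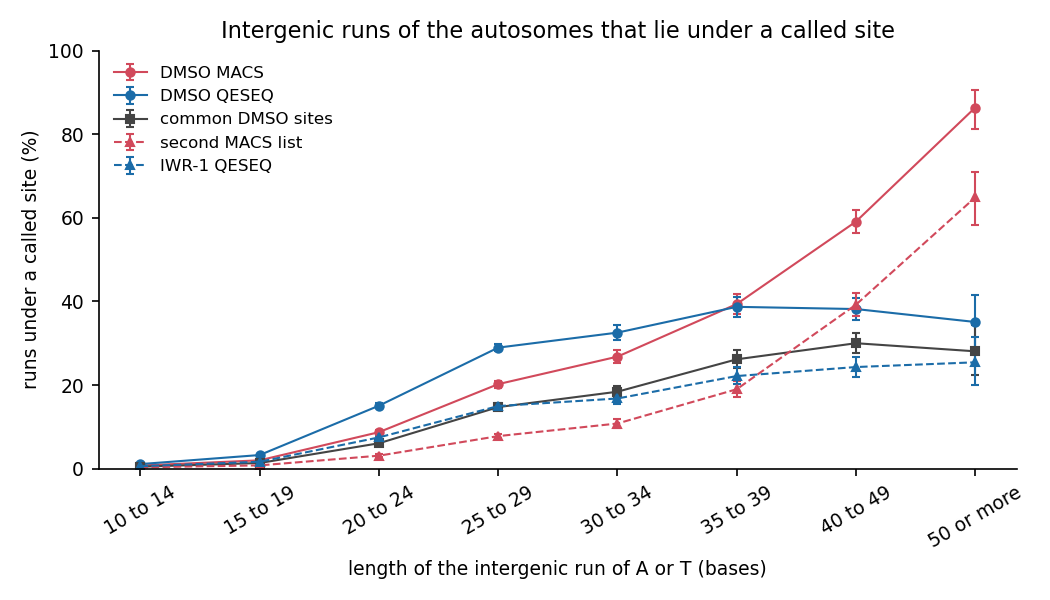
Percentage of all intergenic autosomal runs of A or T, by run length in bases, that overlap a peak of each list, with 95% exact binomial intervals. The 5 lists lie near 0 at 10 to 14 bases, and at 50 or more the MACS lists reach 86.4% (DMSO) and 64.9% (second list) whereas QESEQ is at 35.1% and 25.4%.

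The sequence around the run was not symmetrical. Read with the run as A, a base 100 bp before the run was soft-masked at 54.6% of the sites and a base 100 bp after it at 32.3%, and the higher level ended about 150 bp upstream, where it was 39.98%, compared with 53.5% at 120 bp. The base just before the run was C at 63.4% of sites, and the first base after it was G at 64.6%. These bases can be A only where the edge of the site cuts the run, as before the run at 1.68% of sites. The 2 shares are therefore in effect among 3 bases, and no background was computed for them. The commonest 8 bases before the run were GAAAAACC (323 sites), CCTGTCTC (207) and AAAAAACC (171), while after the run GAAAGAAA (225) and GAAAAGAA (152) were the most frequent. The word CTGTCTC lay within 40 bases before the run at 894 sites (21.2%, 19.9 to 22.4%) and within 40 bases after it at 10 (0.237%). The most frequent 16-base word of the sites, AGACAGGGTTTCTCTG or its complement CAGAGAAACCCTGTCT, was present in 811 members (19.2%, 18.0 to 20.4%), in 2.77% of windows 2 kb away and in 1 of the 302 sites without a run. That word belongs to the end of the B1 element, and 20.7% of the gene-body run sites held it.

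Peak centres lay mostly after the run, on the side with less masking. The centre of the DMSO MACS peak lay a median of 36 bp (34.5 to 38) downstream of the centre of the run when the run was read as A, and on that side at 3244 of 4225 sites (76.8%, 75.5 to 78.0%). On the reference strand 2220 of the runs were A and 2005 were T. The displacement was 44.5 bp (41 to 50) for runs of 7 to 21 and 29 bp (26.5 to 32) for runs of 31 or more. Gene-body run sites had a median of 38.5 bp.

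Soft masking covered on average 46.9% ± 24.5 (SD over 4225 sites) of the bases of a site, compared with 35.9% ± 22.4 in windows 2 kb away and 43.5% ± 34.9 in the genome grid. Grid windows that held a run, as every member does, averaged 47.5% ± 31.8, so the members did not exceed them. Without the bases of the runs themselves, the mean at the sites was 42.5%. Gene-body run sites averaged 42.7% and intergenic sites without a run 29.4%. At least 50% of the bases were masked in 41.9% (40.4 to 43.4%) of the intergenic run sites, 34.8% of the gene-body run sites, 20.5% of the sites without a run and 36.6% of grid windows. Sites that were almost wholly repeat were fewer than in the genome at large, since 6.60% of the members and 20.2% of grid windows had 90% or more masked. Among grid windows that held a run the share was 18.8%. In the 50 bases on each side of the run, 1493 members (35.3%) were masked over 50% or more on both sides, 1020 before the run only, 659 after it only and 1053 on neither.

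Under IWR-1 QESEQ, 1409 of the 4225 sites had a call (33.3%, 31.9 to 34.8%), where 37.0% of all common sites did. The second MACS list overlapped 998 (23.6%, 22.3 to 24.9%), against 25.8% of all common sites. Both lists called 648 members (15.3%) beside 18.4% over all sites, and neither list called 2466 (58.4%) beside 55.6%. All common sites include those at tRNA genes, which the rule for members excludes. Without them the shares were 35.7% in QESEQ, 24.3% in the second MACS list, 16.7% in both and 56.7% in neither. The share of 24.3% lies within the interval of the members. The callers often split, with 761 sites in IWR-1 QESEQ alone and 350 in the second MACS list alone. Compared with gene-body run sites, the members had a QESEQ call less often by 2.82 percentage points (difference -2.82, -4.85 to -0.782), and the second MACS list put the difference at 1.44 points in the other direction, with an interval that spans 0 (-0.352 to 3.24). Within 5 groups by DMSO score, cut at the quintiles of all 10466 common sites, the QESEQ difference ranged from -0.648 to -5.59 points, and only in the middle group did its interval leave 0 out (-9.93 to -1.21). In the second MACS list the difference ranged from -2.77 to 5.72 points, and in the highest score group its interval lay above 0 (0.505 to 10.9). Against intergenic sites without a run the difference was 0.899 points in QESEQ (-4.75 to 6.13) and -6.51 points in the second MACS list (-12.1 to -1.44).

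In both lists calls were more frequent at runs of 31 or more than at runs of 7 to 21, with the larger difference in the second MACS list. The shares did not climb over the whole range of lengths. The second MACS list overlapped 25.2% (17.7 to 33.99%) of the 119 members with a run of 7 to 9 bases and between 15.3 and 16.7% in the classes from 10 to 21. Members with a run of 22 to 24 bases were overlapped by that list in 12.9% of cases, those of 36 to 40 in 37.2%, those of 41 to 50 in 54.5% (48.97 to 59.9%) and those of 51 or more in 37 of 46 (80.4%, 66.1 to 90.6%). IWR-1 QESEQ called 27.8% at 22 to 24 bases, 174 of 435 at 36 to 40, 37.8% at 41 to 50 and 41.3% at 51 or more. Comparing runs of 31 or more with runs of 7 to 21, the share was higher by 21.1 points (17.3 to 24.7) in the second MACS list and by 9.65 points (5.63 to 13.6) in QESEQ. The DMSO score moved with the run as well, with a median of 62.6 at 22 to 24 bases and 89.4 at 51 or more. Among members of the highest of the 5 score groups, the second MACS list called 39.7% of those with a run of 7 to 21, 31.7% of those with 22 to 30 and 59.8% of those with 31 or more, and in the middle group 14.5%, 15.8% and 35.05%. QESEQ called 48.3%, 41.01% and 42.3% in the highest group, where the shortest runs thus had the largest share, and 48 of 200, 28.7% and 41.1% in the middle group. Of the 382 members with a run of 41 or more, 107 were in the second MACS list alone and 33 in QESEQ alone, whereas at 22 to 30 bases it was 115 and 435 of 2078. At gene-body run sites the second MACS list also had its largest share, 83.9%, at 51 or more, whereas QESEQ had its largest at 41 to 50 (47.8%) and was at 35.5% (19.2 to 54.6%) in the 31 sites of 51 or more.

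**Figure D3:**
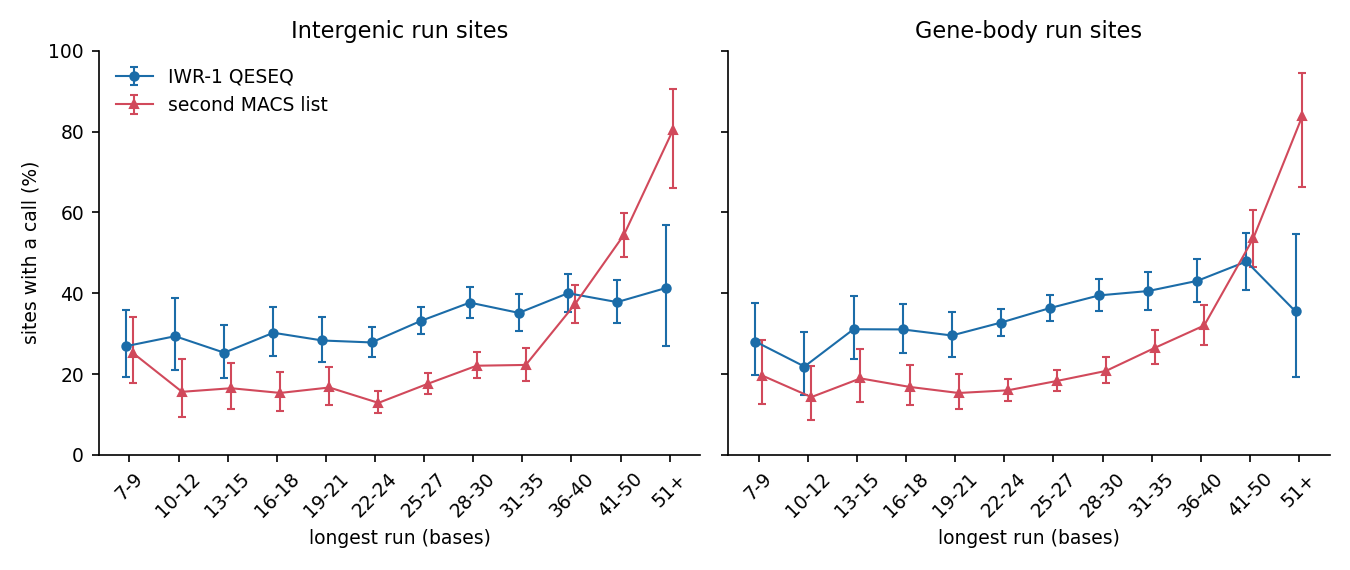
Percentage of sites with a call in IWR-1 QESEQ (circles) or in the second MACS list (triangles) by the length of the longest run in bases, with 95% exact binomial intervals, for intergenic (left) and gene-body (right) run sites. In the intergenic sites the MACS share goes from 12.9% at 22 to 24 bases to 80.4% at 51 or more, and the QESEQ share from 27.8% to 41.3%.

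With gene density it was QESEQ, and not the second MACS list, whose share differed. Intergenic run sites had a median of 7 protein-coding genes within 500 kb (6 to 7), gene-body run sites 10, sites without a run 7 and the grid 4. A coding gene that holds a gene-body site is itself counted, so part of that difference follows from the definition of the classes. There were 22.5 members per 1000 grid positions where no coding gene lay within 500 kb and 58.9 where 21 or more did. These rates are per position and do not allow for the number of runs. Of the autosomal intergenic runs of 25 or more bases, common DMSO sites covered 14.1% of 2316 and 21.1% of 1895 in these surroundings. IWR-1 QESEQ called 20.1% (16.5 to 24.0%) of the 463 members with no coding gene in that range, 31.4% of those with 3 to 5 and 44.3% (40.3 to 48.3%) of the 612 with 21 or more. The second MACS list stood at 24.2%, 23.9% and 23.7% in the same groups. The difference between the densest and the empty surroundings was 24.2 points (18.7 to 29.4) in QESEQ and -0.497 points (-5.70 to 4.60) in the second MACS list. It was above 0 in QESEQ in all 5 groups by DMSO score, from 15.4 to 35.9 points. Scores and runs differed little between these groups, with medians of 68.2 and 65.8 for the score and of 28 and 26 bases for the run, but base composition did: the GC content 2 kb away had a median of 36.9% with no gene and 45.7% with 21 or more. When the members were split into 3 equal groups by that GC content, QESEQ called 22.03% of those with 0 to 2 genes and 27.3% of those with 11 or more in the lowest group, 26.8% and 40.6% in the middle group, and 26.6% and 44.7% in the highest. The part of base composition in the call was not tested further.

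Long runs of the genome, called or not, gave the same order in QESEQ, also in DMSO. Of the autosomal intergenic runs of 25 or more bases, DMSO QESEQ covered 21.5% where no coding gene lay within 500 kb and 39.8% where there were 21 or more, and IWR-1 QESEQ 10.1% and 24.1%. DMSO MACS covered 26.3% and 27.9%, and the second MACS list 12.4% and 13.4%. Gene-body run sites had QESEQ calls at 26.8% with 1 or 2 coding genes and at 42.3% with 21 or more.

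Sites far from genes had fewer QESEQ calls. The members lay a median of 13786 bp (12933 to 14536, quartiles 4771 and 38493) from the nearest gene of any kind, sites without a run 11760 bp (9332 to 14782) and grid positions 20859 bp. Farther than 10 kb lay 57.9% of the members and 68.8% of the grid, and farther than 100 kb 350 members (8.28%) and 11.5% of the grid. QESEQ called 39.96% of the members within 2 kb of a gene and 23.7% of those beyond 100 kb, a difference of 16.2 points (9.76 to 22.4). In the second MACS list these shares were 22.8% and 23.1%, a difference of -0.375 points (-6.32 to 5.44). The nearest gene was protein-coding for 39.4% of members and 28.2% of the grid, a pseudogene for 27.8% and 36.3%, and a long noncoding RNA for 19.5% and 20.6%. Sites lay upstream of the nearest gene in 49.7% of cases (48.2 to 51.2%), and the run of A was on that gene's strand in 50.2% (48.7 to 51.8%), so neither orientation was preferred beyond counting error.

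**Figure D4:**
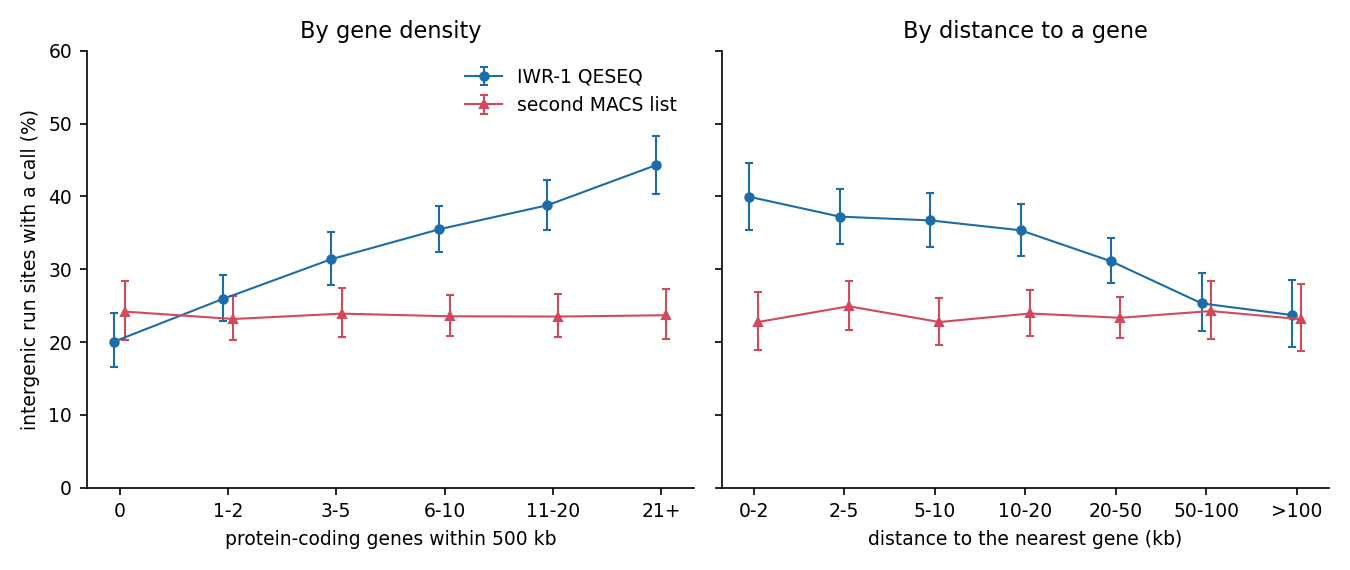
Percentage of intergenic run sites with a call in IWR-1 QESEQ (circles) or the second MACS list (triangles), by the number of protein-coding genes within 500 kb (left) and by the distance to the nearest gene in kb (right), with 95% exact binomial intervals. QESEQ goes from 20.1% to 44.3% with density and from 39.96% to 23.7% with distance, while the second MACS list stays between 22.8% and 24.9%.

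The sites were spread over all autosomes. Per Mb of intergenic sequence there were 3.49 on the autosomes together, from 2.64 on chromosome 7 to 5.09 on chromosome 11, and the share with a QESEQ call ranged from 29.3 to 41.7% between autosomes. Chromosome X held 40 members, 0.365 per Mb, and chromosome Y 3, 0.0378 per Mb. Only 2 of the 40 on X had a QESEQ call (5.00%, 0.611 to 16.9%) and 6 were in the second MACS list. The share on X differed by caller, as X held 0.564% of the QESEQ peaks in DMSO (147 of 26070) and 2.10% of the MACS peaks in DMSO (334 of 15927), and the IWR-1 QESEQ and second MACS lists had 0.332% and 2.05% there. Of the intergenic runs of 25 or more bases on X, DMSO MACS covered 11.99% and DMSO QESEQ 3.13%, and on the autosomes 27.8% and 31.6%. The X members had a median run of 33.5 bases and mean masking of 68.0%, and the part of these in the calls was not tested.

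**Figure D5:**
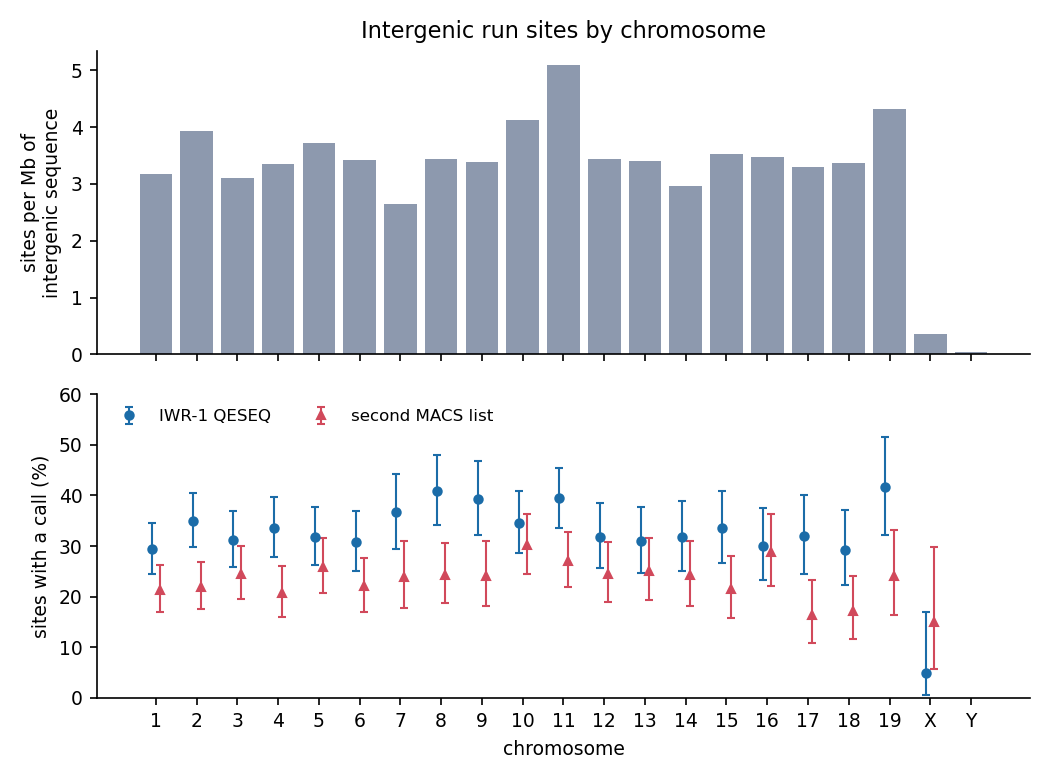
Top, intergenic run sites per Mb of intergenic sequence for each chromosome; bars reach 5.09 on chromosome 11 and 0.365 on X. Bottom, percentage of the sites of each chromosome with a call in IWR-1 QESEQ (circles) or the second MACS list (triangles), with 95% exact binomial intervals; Y, with 3 sites, is left out.

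Spacing between members was measured from centre to centre, and no background was computed for it. The median distance to the next member was 142164 bp, 297 (7.03%) had another within 10 kb and 6 had one within 1 kb. They occupied 3522 gaps between genes, of which 2965 held a single member, and the most in 1 gap was 6, in a gap of 697874 bp on chromosome 12. The closest pair, at chr4:118439606-118439783 and chr4:118439920-118440315 near Gm12858, had centres 423 bp apart, and both were called by QESEQ and not by the second MACS list. The next pair, 774 bp apart near Eif3k, which encodes a translation initiation factor subunit, had runs of 28 bases each in opposite orientation, and 1 of them had a QESEQ call. The third pair lay near Snx2.

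The highest scores went to members with short runs. Of the 10 members with the highest DMSO score (191 or above), 8 had a longest run of 7 to 21 bases, all 10 were in the second MACS list and 8 in IWR-1 QESEQ. The 4 strongest lay on chromosome 6 with scores of 1023, 963, 893 and 777, and both lists called each of them. The sites scored 1023 and 963 have Klrb1c, a gene for a natural killer cell receptor, as their nearest coding gene, that scored 777 has BC035044, and that scored 893 is 3488 bp from Rny3, a gene for a small Y RNA. They were followed by sites near Tnrc18 (391), Gm48433 (321) and Tcf7l1 (251). The remaining 3 were at chr16:46650263-46650534 with a run of 50 (248), near Gm10655 (196) and near Gm25771 with a run of 45 (191), and of these only the site near Gm10655 was called by QESEQ. Among the 100 highest scores the median run was 33 bases, 49 had a QESEQ call and 75 were in the second MACS list.

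The 5 members with the longest runs were not among the 10 highest scores. Of the classes by run length, however, that of 51 or more bases had the highest median score, 89.4. The run of 65 bases lay near Slc22a15 (score 78.5). Runs of 58 and 57 bases lay near AC158763.1 (score 102), Gm29235 (130) and Tcea3 (82.8), and a run of 56 near Gm23389 (105). QESEQ called 2 of these 5 and the second MACS list 2. Of the 5 members farthest from any gene, 4 lay in the same gap of 1255056 bp on chromosome 1, between 551665 and 615182 bp from a gene, and the other was 517831 bp from 4930554G24Rik on chromosome 11. QESEQ called 2 of them and the second MACS list 4.

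Genes of the BMP and Wnt pathways and of the mesodermal lineages were then searched among the nearest protein-coding genes of the members. Over all protein-coding genes, 2897 of 21924 (13.2%) were nearest to at least 1 member. For the BMP list it was 6 of 15 genes, for Wnt 10 of 15, for cardiac genes 5 of 15, for haematopoietic and endothelial genes 3 of 15, for mesoderm 3 of 15 and for pluripotency 3 of 10. Being nearest depends on the length of the empty sequence beside a gene, which was not matched, and no list was tested.

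In the BMP list, Atoh8, a basic helix-loop-helix factor, had 4 members 8410 to 25846 bp away, of which 2 had a QESEQ call, and the strongest of them (score 99.3, run of 26 bases) lay at chr6:72261180-72261666. Id4, an inhibitor of such factors, had 2, the nearer at 231927 bp, and the stronger of them was in both IWR-1 lists with a run of 51. The inhibitory Smad6 had a member 26834 bp away and the BMP antagonist Chrd one at 111185 bp, both called by QESEQ alone, and that of the homeobox gene Msx2 at 207237 bp had no IWR-1 call. Bambi, which encodes a decoy receptor, had 1 at 153830 bp in both IWR-1 lists.

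At the 10 Wnt genes, the strongest site had no IWR-1 call at 6, a share near the 58.4% of all members in neither list. Tcf7l1, a TCF factor that mostly acts as a repressor, had the top site of the list (chr6:72806715-72807051, score 251, run of 7 bases, 17629 bp from the gene), and it was in both IWR-1 lists. The strongest site of the feedback gene Axin2, 12047 bp away, was also in both, and those of the antagonist Dkk1 and of Lef1, another nuclear factor of the pathway, were in QESEQ alone. The strongest sites of Ccnd1, Sp5, Wif1, Nkd1, Lgr5 and Tcf7l2 were in neither list, at distances from 2492 bp (Lgr5) to 91349 bp (Ccnd1).

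Among the lineage genes, the strongest cardiac site had Isl1, a marker of heart progenitors, as its nearest coding gene, at 348080 bp, and no IWR-1 call. The site 2190 bp from Myocd, a cofactor of smooth and heart muscle genes, had a run of 50 bases and was in both IWR-1 lists. The transcription factor Tbx20 had 2 members, both called by QESEQ. In the haematopoietic list, Lmo2 had 2 members of which the second MACS list called 1, the member 6004 bp from Jdp2 was in the second MACS list alone, and that of Myb was in neither. For mesoderm, the member of Nodal at 5710 bp was in both lists, that of Lhx1 in QESEQ alone, and that of T (Brachyury) at 39198 bp in neither. The members of Jdp2 and T had DMSO scores of 51.2 and 51.1, close to the lowest score of 50. The strongest members of the pluripotency genes Sox2, Pou5f1 and Klf4 had no IWR-1 call, where 58.4% of all members were in neither list. That of Sox2 lay 109665 bp away, and the other member of Sox2, at 425748 bp, was in both lists.

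Of the 8 words searched for Smad1 or its partners, 7 were present in a smaller share of the members than of the windows 2 kb away, and GTCTAGAC in a slightly larger one, from 12 sites. Searched on both strands over the whole site, the GC-rich Smad word GGCGCC was present in 0.899% of the members (0.637 to 1.23%) and 1.60% of windows 2 kb away, and GGAGCC in 14.2% and 17.1%. CAGACA, which holds the core Smad element, was in 30.98% and 33.9%, and GTCTAGAC in 12 members (0.284%) and 0.260% of windows. For the TCF/LEF words CTTTGAT and CTTTGTT the shares were 7.95% against 8.79% and 11.6% against 12.9%, for the GATA word AGATAA 22.3% against 26.0%, and for the AP-1 word TGACTCA 6.39% against 7.62%. Runs of A take up a median of 31 bases of each site, and the part of this in the shares was not tested. In the 302 sites without a run, GGCGCC was present in 13 (4.30%, 2.31 to 7.25%) against 2.81% of their windows (1.65 to 4.47%). GGAGCC was present in 19.2% (14.9 to 24.1%) against 14.2% (11.5 to 17.3%), and for both words the intervals overlapped. CAGACA was in 29.1% against 29.5%, and GTCTAGAC in 0 of the 302 sites against 2 of 604 windows. Shares were 6.62% against 3.97% for CTTTGAT, 10.3% against 10.1% for CTTTGTT, 16.2% against 19.4% for AGATAA and 5.96% against 4.64% for TGACTCA.

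Members that carried the CTGTCTC word before the run had a call somewhat more often than the others, 37.0% (33.9 to 40.3%) against 32.4% (30.8 to 33.98%) in QESEQ and 27.96% (25.04 to 31.03%) against 22.5% (21.05 to 23.9%) in the second MACS list, with the same median run of 27 bases and the same median score of 66.7. They differed in masking, with a median of 57.7% with the word and 38.5% without it, and the part of masking in the calls was not tested. By masking, the lowest QESEQ share was found at members with 75% or more of their bases masked, 25.3% (21.98 to 28.8%), compared with 33.3% at those with under 25%, while the second MACS list overlapped 23.3% and 19.8%.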

How the data were processed

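The authors aligned reads to mm10 with Bowtie2 2.1.0, removed duplicates with SAMtools and called peaks with MACS 1.0.1 (tag size 51, p-value cutoff 1e-05) and QESEQ (cutoff 0.05), 1 ChIP library per treatment; their processing notes also name CASAVA 1.8. The deposited values are positions and, for MACS, a score per peak whose scale the lists do not name. Positions were read as counted from 0 and are given from 1. QESEQ positions were taken to follow the same convention. An overlap of 1 bp counted as a call. Shares carry exact (Clopper-Pearson) intervals, differences Newcombe intervals and medians order-statistic intervals, all at 95%. Gene models were GENCODE M21, and sequence, soft masking and tRNA genes came from NCBI's GRCm38; no interval passed a chromosome end. Named sites were the 10 highest scores, the 5 longest runs, the 5 farthest from a gene, the 3 closest pairs and, per gene list, the strongest site; the other genes of each list near a member, the surroundings of genome runs, the 2-base repeats and the run-shared words were chosen after values were seen. Members and lists were chosen with earlier results of these data known. The overlap, run and distance steps were tested on simulated data. Python 3.11.15 with numpy 2.4.6, pandas 2.3.3, scipy 1.17.1 and matplotlib 3.10.9 was used.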

Additional observations from a re-analysis of the deposited data

How the results depend on the processing

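With 1 library per treatment no replicate could be left out. No paired analysis was possible because each treatment has 1 ChIP library and no result comes from a test. Of 75 alternative values, 52 lay within the interval of the reported one or, for counts, within 1.5 times of it. The 33.3% with an IWR-1 call became 23.6% in the second MACS list, 15.3% in both lists, 41.6% in either, 29.7% where the IWR-1 peak had to cover 50% of the site and 48.8% at the 342 members with a DMSO score of at least 100. The difference from gene-body run sites turned from -2.82 to 1.44 points in the second MACS list and was -0.108 in both lists; the cause was not tested. The difference from sites without a run was -6.51 points in the second MACS list, -5.52 in both lists and -22.2 at scores of at least 100. Its sign in IWR-1 QESEQ, 0.899 with an interval that spans 0, depended on the run definition, with 4.49 (0.560 to 8.20) for runs of at least 15 and -3.72 (-7.21 to -0.314) for runs in the central 200 bp. Under these definitions 3885 and 3600 members remained. The members that dropped out, which hold a shorter run or a run away from the centre, were counted with the sites without a run. The median distance to a gene became 37073 bp with protein-coding genes only and 19895 bp for sites over 5 kb from starts, which removes near sites by construction. The median number of coding genes was 5 over 5 kb from starts and 1 within 100 kb. At scores of at least 100 the median run was 33, mean masking 50.4% and the share with 50% or more masked 46.2%. With the run in the central 200 bp these masking values were 47.9% and 44.0%, with protein-coding genes only 46.1% and 40.4%, and mean masking was 42.5% without the bases of runs. The lists give no read count per site, so a missing IWR-1 call cannot be told apart from a peak just under the cutoff.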
